A study of Mus musculus with 4 samples.

Results

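Interferon-stimulated genes are genes whose transcription rises when a cell senses interferon. The list described here was given by gene symbol and holds 36 of the 56691 genes in the deposited table, and each symbol was found once. RNA-seq had been performed on 4 sarcomas, 2 from mice given arsenic trioxide (ATO 1 and ATO 2) and 2 from control mice (PBS 1 and PBS 2). All 4 tumors came from W/+ mice, which carry a mutant and a wild-type p53 allele, and the labels write the genotype as p53R282W/+, numbered by the human residue. Arsenic trioxide was given long-term in the drinking water to mice that develop tumors spontaneously, and the comparison asks how the transcriptome of a sarcoma differs with this treatment. PBS is the control treatment in the labels, whereas the study describes these mice as untreated. The age of each mouse and the type of each sarcoma are not given in the sources used here. All 4 labels carry in addition a culture protocol that adds insulin, dexamethasone and isobutylmethylxanthine to cells, which does not describe a tumor.

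Interferons bind receptors at the cell surface and activate Janus kinases, which phosphorylate STAT proteins. Type I and type III interferons act mainly through a complex with STAT2 and IRF9 that binds the interferon-stimulated response element (ISRE), while interferon gamma acts mainly through the gamma-activated site (GAS). In tumors these genes can be active in malignant cells as well as in infiltrating leukocytes, endothelial cells and fibroblasts, and RNA of a whole tumor sums all of them.

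The total count per tumor was 18134000 in ATO 1, 15259695 in ATO 2, 17465090 in PBS 1 and 17971675 in PBS 2. ATO 2 had 14.735% of its counts in mitochondrial genes (95% Wilson interval 14.717% to 14.753%), against 2.586% in ATO 1 (2.579% to 2.594%), 1.976% in PBS 1 (1.970% to 1.983%) and 1.990% in PBS 2 (1.984% to 1.997%). Levels are given below as CPM (counts scaled to a common library size with the TMM factors of edgeR) for comparisons between tumors, and as deposited FPKM, the count divided by the exonic length and by the total of the tumor, for comparisons between genes. The FPKM are not scaled for composition, so the large mitochondrial share lowers the FPKM of other genes in ATO 2. Every member passed the filter on low counts, and the lowest count of a member in any tumor was 31, for Mx2 in ATO 2. Together the 36 genes took 0.194% of the counts in ATO 1 (95% Wilson interval 0.192% to 0.196%), 0.125% in ATO 2 (0.123% to 0.127%), 0.0758% in PBS 1 (0.0745% to 0.0771%) and 0.134% in PBS 2 (0.132% to 0.136%). These intervals cover counting error only. The share was thus highest in ATO 1 and lowest in PBS 1, and PBS 2 lay slightly above ATO 2, so that the groups overlapped by this measure. The totals behind it include the mitochondrial counts, which lower the share in ATO 2. By summed FPKM, led by Ifi27l2a, the groups did not overlap, at 665.9 in ATO 1, 511.0 in ATO 2, 248.8 in PBS 1 and 390.9 in PBS 2. Ifi27l2a alone gave 68.25, 149.18, 24.36 and 11.54 FPKM of these sums, in the same order of tumors. Without it the sum in PBS 2 would lie above that in ATO 2. The median FPKM of the members overlapped between the groups, at 10.8 in ATO 1, 7.98 in ATO 2, 5.17 in PBS 1 and 9.03 in PBS 2. By CPM, ATO 2 lay above PBS 2 in 27 of the 36 genes.

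In the fit, 33 of the 36 genes were higher in ATO than in PBS tumors (91.7%) and 3 were lower, and the log2 fold change had a median of 0.92. Over all 17188 genes tested, 49.2% were higher and the median was -0.02. By edgeR's quasi-likelihood test with Benjamini-Hochberg adjustment, 0 of the 36 genes passed an adjusted p of 0.05, and neither did any of the 17188 genes (0.0%). An unadjusted p under 0.05 was found for 5 members (13.9%), namely Ifi27l2a, Ifit3, Gbp7, Usp18 and Ifit3b, and for 8.51% of all genes tested. DESeq2 called 1 member, Ifi27l2a, and 4.12% of the 18295 genes for which it gave an adjusted p. Both ATO tumors lay above both PBS tumors in 20 members (55.6%) by CPM, against 19.7% of all genes tested, and below them in 0 members, against 20.2%. By FPKM the first count was 10 (27.8%), against 12.8% of all genes, and the second 0, against 29.6%. The labels do not say whether the 2 tumors of a group came from different mice, so the p-values measure the spread between these samples.

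The tumors of a group also differed. The highest CPM was found in ATO 1 for 24 members, in ATO 2 for 10, in PBS 2 for 2 and in PBS 1 for 0, while all genes tested were spread nearly evenly, from 23.7% in PBS 2 to 26.9% in PBS 1. The lowest CPM was found in PBS 1 for 22 members (61.1%, against 28.6% of all genes). Within the ATO group, ATO 1 lay above ATO 2 in 26 of 36 genes, and within the PBS group PBS 2 lay above PBS 1 in 25. The median log2 ratio over the members, with a pseudocount of 1 CPM, was 1.42 for ATO 1 over PBS 1 and 0.33 for ATO 2 over PBS 2. It was 0.54 for ATO 1 over ATO 2 and 0.62 for PBS 2 over PBS 1. Leaving out each tumor in turn gave member medians of 0.63 without ATO 1, 0.98 without ATO 2, 0.73 without PBS 1 and 1.29 without PBS 2.

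**Figure D1:**
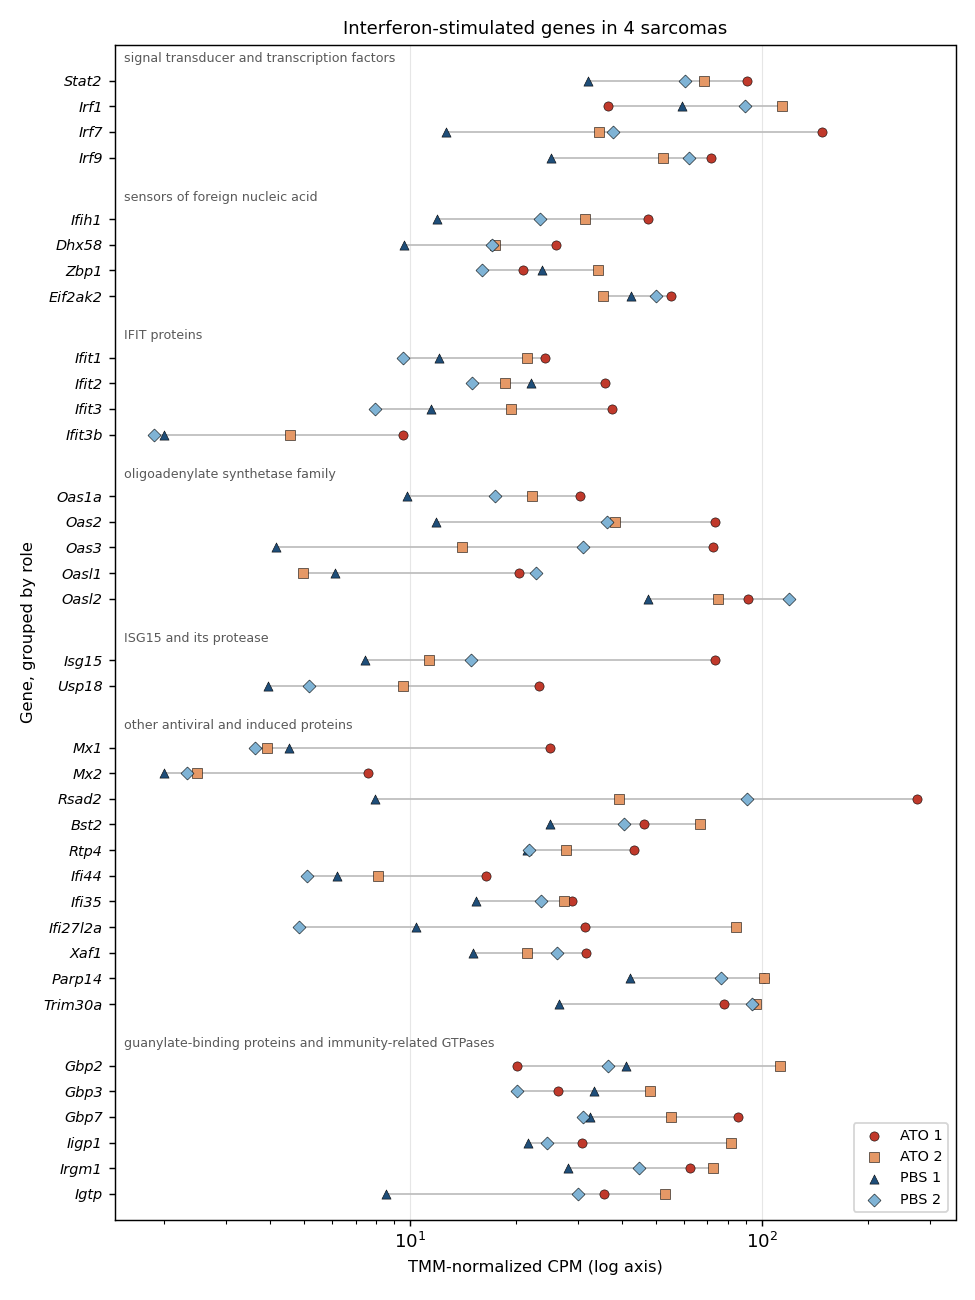
TMM-normalized CPM on a log axis of the 36 interferon-stimulated genes, grouped by role, with 1 point for each of the ATO 1, ATO 2, PBS 1 and PBS 2 tumors and a grey line from the lowest to the highest. ATO 1 is the highest tumor for 24 genes and PBS 1 the lowest for 22, while among the 6 guanylate-binding and immunity-related GTPase genes at the bottom ATO 2 is the highest for 5.

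The signal transducer and the transcription factors of the response came first in the order of action. Stat2, a subunit of the ISRE-binding complex, was at 90.8 CPM in ATO 1, 68.4 in ATO 2, 32.1 in PBS 1 and 60.4 in PBS 2. Irf9, the DNA-binding subunit of that complex, was at 71.7, 52.3, 25.1 and 61.9 CPM in the same order of tumors. Both genes were highest in ATO 1 and lowest in PBS 1, and the groups did not overlap for Stat2 but did for Irf9, where PBS 2 lay above ATO 2. For Stat2 the separation was small, with ATO 2 at 1.13 times PBS 2, and it was lost by FPKM. Irf7, the factor that amplifies type I interferon production, reached 148 CPM in ATO 1 against 34.4 in ATO 2, 12.7 in PBS 1 and 37.7 in PBS 2. ATO 1 thus stood apart, while ATO 2 and PBS 2 were alike. The fitted log2 fold change of Irf7 was 1.86 ± 0.93 (SE; adjusted p = 0.635 in edgeR), while it was 0.43 without ATO 1 and 2.85 without PBS 2. Irf1, a factor that interferon gamma induces rapidly, had another order, with 36.5 CPM in ATO 1, 114.3 in ATO 2, 59.1 in PBS 1 and 89.4 in PBS 2. Here ATO 1 was the lowest tumor and ATO 2 the highest, so the mean of the groups was nearly equal (log2 fold change 0.02 ± 0.66), and the fit without ATO 2 gave -1.02 while the fit without PBS 1 gave -0.25.

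Among the cytoplasmic sensors of foreign nucleic acid, Ifih1, which encodes the double-stranded RNA sensor MDA5, was at 47.4 CPM in ATO 1, 31.3 in ATO 2, 11.9 in PBS 1 and 23.4 in PBS 2. Dhx58, which encodes the related regulator LGP2, was at 25.9, 17.4, 9.57 and 17.0 CPM in these tumors. Both had the order ATO 1, ATO 2, PBS 2, PBS 1 with no overlap by CPM, although ATO 2 exceeded PBS 2 by a factor of 1.02 for Dhx58. By FPKM the groups overlapped for both genes. The log2 fold change of Ifih1 was 1.15 ± 0.53 (adjusted p = 0.615 in edgeR), and 0.75 without PBS 1. Zbp1, a sensor of Z-form nucleic acid that can trigger necroptosis, was at 20.9 CPM in ATO 1, 34.3 in ATO 2, 23.6 in PBS 1 and 16.02 in PBS 2. Eif2ak2, which encodes the kinase PKR that halts translation on double-stranded RNA, was at 55.2, 35.4, 42.5 and 50.03 CPM. The groups overlapped for these genes, ATO 2 being the highest tumor for Zbp1 and the lowest for Eif2ak2. The fitted difference of Eif2ak2 was -0.03 ± 0.42 on the log2 scale, and it changed sign to 0.26 without ATO 2 and 0.09 without PBS 2.

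The IFIT proteins bind viral RNA and interfere with its translation. Ifit1, which recognizes RNA lacking the methylated host cap, was at 24.1 CPM in ATO 1, 21.5 in ATO 2, 12.1 in PBS 1 and 9.52 in PBS 2. Ifit3 was at 37.5, 19.4, 11.5 and 7.96 CPM in the same order of tumors, and its close copy Ifit3b at 9.56, 4.57, 2.00 and 1.86 CPM. In these genes both ATO tumors exceeded both PBS tumors by CPM and by FPKM, and PBS 2 was the lowest tumor, unlike in most other members. For Ifit1 the ATO mean was 22.8 ± 1.87 CPM (SD, n = 2) and the PBS mean 10.8 ± 1.82 CPM (SD, n = 2), so that each group was tight and the gap larger than either SD. The log2 fold changes were 1.08 ± 0.45 for Ifit1, 1.55 ± 0.55 for Ifit3 and 1.87 ± 0.71 for Ifit3b, with adjusted p of 0.597, 0.571 and 0.585 in edgeR. The lowest values with a tumor left out were 0.91 for Ifit1 (without PBS 2), and 0.98 for Ifit3 and 1.22 for Ifit3b (without ATO 1). Ifit3 and Ifit3b share 51.2% and 45.0% of their 50-base transcript windows with another gene, chiefly with each other, so the split of reads between them is uncertain. Ifit2, a family member that can promote apoptosis, was at 35.9 CPM in ATO 1, 18.6 in ATO 2, 22.0 in PBS 1 and 15.0 in PBS 2. Its groups overlapped, and without ATO 1 its log2 fold change was -0.01 in place of 0.56.

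The oligoadenylate synthetases make the second messenger that activates RNase L. Oas1a was at 30.3 CPM in ATO 1, 22.2 in ATO 2, 9.78 in PBS 1 and 17.4 in PBS 2. Oas2 was at 73.3, 38.3, 11.8 and 36.3 CPM, and Oas3 at 72.5, 14.0, 4.16 and 31.1 CPM. PBS 1 was the lowest and ATO 1 the highest tumor for all of them. The groups did not overlap by CPM for Oas1a and Oas2, but they did by FPKM, and for Oas3 PBS 2 exceeded ATO 2 on both scales. The span of Oas3 was wide, ATO 1 being 17.4 times PBS 1, and its log2 fold change of 1.30 ± 1.22 became -0.34 without ATO 1 and 3.38 without PBS 2. Oas1a shares 57.6% of its transcript windows with another gene, chiefly Oas1g, so its counts may hold reads of that paralog. Oasl1, a family member without synthetase activity that represses the translation of Irf7, was at 20.4 CPM in ATO 1, 4.97 in ATO 2, 6.10 in PBS 1 and 22.8 in PBS 2. Oasl2 was at 91.1, 74.9, 47.3 and 119.1 CPM. By CPM these were the only members with their highest level in a PBS tumor, PBS 2, while by FPKM Irf1 and Trim30a were highest there too. Their log2 fold changes were -0.19 ± 0.98 and -0.00 ± 0.56. The sign for Oasl1 turned positive without ATO 2 (0.51) and without PBS 2 (1.06), and that for Oasl2 did so without ATO 2 (0.14) and without PBS 2 (0.81) as well as with the size factors of DESeq2 (0.01).

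Isg15 encodes a ubiquitin-like protein that is joined to many targets after interferon exposure. It was at 73.7 CPM in ATO 1, 11.3 in ATO 2, 7.42 in PBS 1 and 14.9 in PBS 2. ATO 1 held 6.52 times the level of ATO 2, and ATO 2 lay between the PBS tumors. The means were 42.5 ± 44.1 CPM in ATO and 11.2 ± 5.30 CPM in PBS (SD, n = 2 each), and the log2 fold change was 1.93 ± 1.00 (adjusted p = 0.644 in edgeR). Without ATO 1 it was 0.00. Usp18, which encodes the protease that removes Isg15 from its targets and dampens signaling at the type I receptor, was at 23.2 CPM in ATO 1, 9.54 in ATO 2, 3.95 in PBS 1 and 5.14 in PBS 2. Its groups did not overlap by CPM or FPKM. The log2 fold change of Usp18 was 1.85 ± 0.67 (adjusted p = 0.577 in edgeR) and 1.05 without ATO 1.

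The other antiviral genes held the widest range. Rsad2, which encodes viperin, an enzyme whose nucleotide product blocks viral polymerases, was at 276.5 CPM in ATO 1, 39.3 in ATO 2, 7.94 in PBS 1 and 90.8 in PBS 2. The level in ATO 1 was 34.8 times that in PBS 1, and within the PBS group the ratio of PBS 2 to PBS 1 was 11.4, more than the 7.04 of ATO 1 to ATO 2. Its log2 fold change was 1.68 ± 1.43 (adjusted p = 0.774 in edgeR), -0.34 without ATO 1, 0.80 without PBS 1 and 4.31 without PBS 2. Mx1, a gene of the dynamin-like GTPases, was at 25.1 CPM in ATO 1, 3.93 in ATO 2, 4.52 in PBS 1 and 3.63 in PBS 2. Mx2, its neighbor on the chromosome, was at 7.58, 2.48, 2.00 and 2.32 CPM. In both genes ATO 1 stood alone and the other tumors were close together, so that the log2 fold changes of 1.83 ± 1.00 and 1.22 ± 0.81 became -0.07 and 0.19 without ATO 1. Ifi44 was at 16.4 CPM in ATO 1, 8.09 in ATO 2, 6.21 in PBS 1 and 5.09 in PBS 2, with ATO 1 again the highest. Its groups did not overlap by CPM but did by FPKM, as for Mx2, and without ATO 1 its log2 fold change was 0.50 in place of 1.12.

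Ifi27l2a, a small membrane protein of the family of the human gene IFI27, was at 31.5 CPM in ATO 1, 84.5 in ATO 2, 10.4 in PBS 1 and 4.84 in PBS 2. Both ATO tumors were above both PBS tumors on either scale, and here ATO 2 was the highest. The group means were 58.0 ± 37.5 CPM in ATO and 7.60 ± 3.91 CPM in PBS (SD, n = 2 each). The fitted difference was 7.62-fold, the largest among the members, with a log2 fold change of 2.93 ± 0.74, and it lay between 2.05 without ATO 2 and 3.58 without PBS 1 when a tumor was left out. Its adjusted p was 0.570 in edgeR and 0.0153 in DESeq2. It was also the most abundant member by mean FPKM, with 68.3 FPKM in ATO 1, 149.2 in ATO 2, 24.4 in PBS 1 and 11.5 in PBS 2. Bst2, which encodes tetherin, a protein that holds budding virus at the cell surface, followed by mean level with 51.2 FPKM in ATO 1, 60.5 in ATO 2, 30.1 in PBS 1 and 49.7 in PBS 2. The order for Bst2 was thus ATO 2, ATO 1, PBS 2, PBS 1 without overlap, although ATO 1 was only 1.13 times PBS 2 by CPM.

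The remaining genes of this group differed less. Rtp4, a receptor transporter protein with antiviral activity, was at 43.2 CPM in ATO 1, 27.6 in ATO 2, 21.4 in PBS 1 and 21.8 in PBS 2. Ifi35 was at 28.8, 27.4, 15.4 and 23.5 CPM, and Parp14, an ADP-ribosyltransferase, at 101.6, 101.5, 42.2 and 76.2 CPM. For these 3 genes both ATO tumors exceeded both PBS tumors by CPM and not by FPKM, and their log2 fold changes were 0.72, 0.53 and 0.78. Leaving out 1 tumor brought these down to 0.34 for Rtp4 (ATO 1), 0.26 for Ifi35 (PBS 1) and 0.41 for Parp14 (PBS 1), and without PBS 2 those of Ifi35 and Parp14 were 0.87 and 1.27. Rtp4 shares 11.6% of its transcript windows with another gene, Gm45338, which overlaps it on the same strand, so part of its counts is uncertain. Xaf1, a pro-apoptotic partner of the inhibitor XIAP, was at 31.6 CPM in ATO 1, 21.6 in ATO 2, 15.1 in PBS 1 and 26.2 in PBS 2. Trim30a, a tripartite-motif protein that restrains NF-kappaB signaling, was at 78.0, 95.9, 26.5 and 93.7 CPM. The groups overlapped for Xaf1 and Trim30a, PBS 1 being well below the other tumors for Trim30a, and the log2 fold change of Trim30a was 0.53 ± 0.68, turning to -0.11 without PBS 1 and to 1.71 without PBS 2.

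Guanylate-binding proteins and immunity-related GTPases attack the vacuoles of intracellular pathogens and respond strongly to interferon gamma. Gbp2 was at 20.1 CPM in ATO 1, 112.5 in ATO 2, 41.1 in PBS 1 and 36.5 in PBS 2. Gbp3 was at 26.3, 48.0, 33.4 and 20.2 CPM, and Gbp7 at 85.4, 55.0, 32.4 and 31.1 CPM. These neighbors differed in order, with ATO 2 highest for Gbp2 and Gbp3 and ATO 1 highest for Gbp7. For Gbp2, ATO 1 was the lowest tumor, and the log2 fold changes of 0.77 ± 0.85 for Gbp2 and 0.47 ± 0.52 for Gbp3 became -0.94 and -0.02 without ATO 2, and 1.52 and 0.83 without ATO 1. For Gbp7 the groups did not overlap on either scale (log2 fold change 1.14 ± 0.41, adjusted p = 0.576 in edgeR). Iigp1, an effector GTPase, was at 30.8 CPM in ATO 1, 81.6 in ATO 2, 21.7 in PBS 1 and 24.4 in PBS 2. Irgm1, a regulatory GTPase that keeps the effectors off the membranes of the host, was at 62.4, 72.5, 28.1 and 44.6 CPM, and the related Igtp at 35.5, 53.0, 8.52 and 30.0 CPM. By CPM all 3 had ATO 2 as the highest and PBS 1 as the lowest tumor, and the groups did not overlap by CPM or FPKM. Their log2 fold changes were 1.28 ± 0.59, 0.89 ± 0.42 and 1.20 ± 0.72, with adjusted p of 0.610, 0.621 and 0.683 in edgeR. Without ATO 2 the value for Iigp1 was 0.43, and that for Igtp was 0.56 without PBS 1 and 2.37 without PBS 2. Igtp shares 11.8% of its transcript windows with another gene, Irgm2, and Gbp7 shares 12.7%, chiefly with a pseudogene, Gm43802, so part of their counts is uncertain.

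The guanylate-binding and immunity-related GTPase genes and the other members differed in the ATO tumor that was most often highest by CPM. Among these 6 genes, ATO 2 was the highest tumor for 5 (83.3%) and ATO 1 for 1, while among the other 30 members ATO 1 was the highest for 23 (76.7%) and ATO 2 for 5. Over all genes tested, ATO 1 was highest for 23.9% and ATO 2 for 25.5%. Among tested genes of these families that are not members, Gbp4, Gbp5, Gbp6, Irgm2, Ifi47, Tgtp1 and Tgtp2 were highest in ATO 2 by CPM. Gbp8 and Gbp9, also not members, were highest in PBS 2 and higher in ATO 1 than in ATO 2. Mx1 and Mx2, also GTPases but of another family, were highest in ATO 1. Other exceptions were Gbp7, highest in ATO 1, and Irf1, Zbp1, Bst2, Ifi27l2a and Trim30a, highest in ATO 2, and by FPKM Irgm1 was higher in ATO 1 (10.8 FPKM) than in ATO 2 (10.2). The median log2 ratio of ATO 1 to ATO 2, with a pseudocount of 1 CPM, was -0.71 over the 6 genes, 0.60 over the other members and 0.00 over all genes. With 1 tumor on each side this contrast has no replicate check, and it was not tested.

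**Figure D2:**
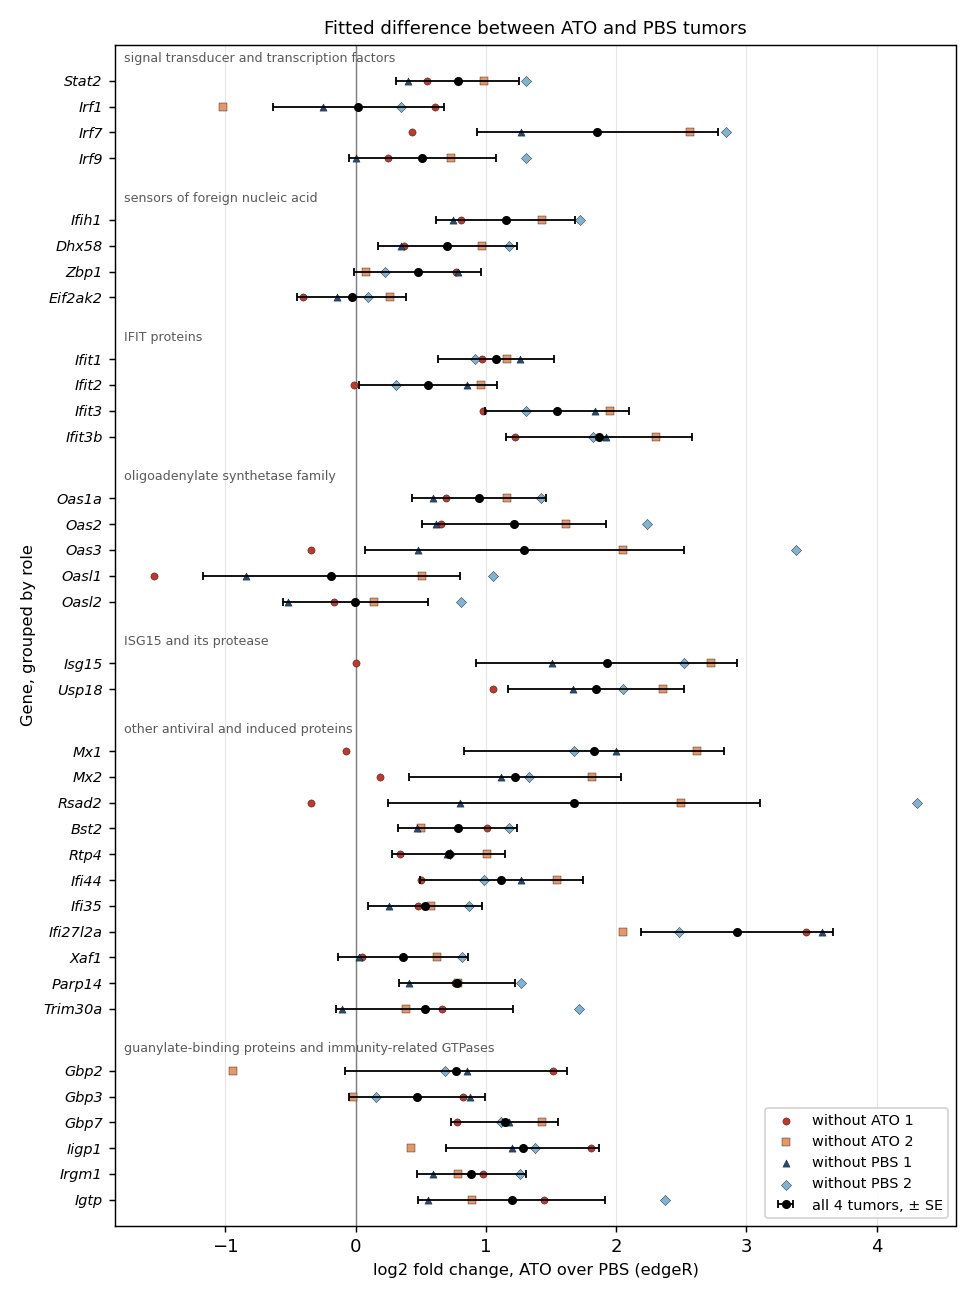
Fitted log2 fold change of ATO over PBS tumors in edgeR for each of the 36 genes (black points, bars ± SE), with the values after leaving out each tumor in turn (colored symbols). The points of 33 genes lie above 0, and without ATO 1 the values of Isg15, Mx1 and Rsad2 move to 0.00, -0.07 and -0.34.

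Several members lie side by side. In the GENCODE M21 annotation of GRCm38, 14 members fall into 5 groups of neighbors separated by at most 500 kb. The IFIT genes Ifit2, Ifit3, Ifit3b and Ifit1 occupy chr19:34550694-34650009, a span of 99.3 kb, and Gbp7, Gbp3 and Gbp2 occupy chr3:142530342-142638008. Oas2, Oas3 and Oas1a lie at chr5:120730333-120907521, Oasl2 and Oasl1 at chr5:114896936-114937915, and Mx1 and Mx2 at chr16:97447035-97560900. Neighbors did not always have the same order of tumors, as Oas3 and Oas1a or Gbp2 and Gbp7 show.

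Promoter sequences from RefSeq (GRCm38.p6) were at hand for 26 of the 36 members, and not for Dhx58, Zbp1, Oas2, Usp18, Mx1, Mx2, Rtp4, Ifi27l2a, Parp14 and Iigp1. The 250 bases before each transcript start were searched on both strands for the letters of the ISRE core, a pair of GAAA with 2 bases of any kind between them, and for those of the GAS core, TTC and GAA with 3 bases between them. The former was present in the promoters of 15 of the 26 genes (57.7%), against 3.46% of the 27025 genes with a promoter of this length. The latter was present in 7 of the 26 (26.9%), against 8.13%. All 5 guanylate-binding and immunity-related GTPase genes with a promoter held the ISRE letters, and 2 of them also held the GAS letters. Matches describe the letters only and do not show that a factor was bound in these tumors.

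The following stretches cover the 160 bases before the transcript start, 5′ to 3′ in the direction of the gene, for the most abundant member of each role with ISRE letters there and a transcript start within an annotated transcript. Capitals mark the ISRE letters on either strand, and GAS letters, which Oas1a also holds, are not marked. They are shown because these genes span the patterns above, from Isg15 and Rsad2 with ATO 1 far highest to Gbp2 with ATO 2 highest. Isg15 lies on the minus strand (chr4:156200819-156200978) and holds 3 overlapping matches. Rsad2 also lies on the minus strand (chr12:26456453-26456612), as does Oas1a (chr5:120907526-120907685), while Ifit3 (chr19:34583369-34583528) and Gbp2 (chr3:142620503-142620662) lie on the plus strand. The matches of Isg15 and Oas1a read in the direction of the gene, and those of Ifit3, Rsad2 and Gbp2 in the opposite direction.
Ifit3: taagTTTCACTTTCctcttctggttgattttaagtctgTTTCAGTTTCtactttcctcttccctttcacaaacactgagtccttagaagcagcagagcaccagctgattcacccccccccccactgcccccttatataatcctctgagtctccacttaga
Oas1a: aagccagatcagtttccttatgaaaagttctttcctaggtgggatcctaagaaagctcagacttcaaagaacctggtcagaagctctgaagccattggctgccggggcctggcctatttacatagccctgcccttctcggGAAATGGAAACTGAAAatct
Isg15: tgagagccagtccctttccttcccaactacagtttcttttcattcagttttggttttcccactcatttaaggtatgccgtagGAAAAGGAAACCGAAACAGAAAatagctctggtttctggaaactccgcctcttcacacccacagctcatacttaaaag
Rsad2: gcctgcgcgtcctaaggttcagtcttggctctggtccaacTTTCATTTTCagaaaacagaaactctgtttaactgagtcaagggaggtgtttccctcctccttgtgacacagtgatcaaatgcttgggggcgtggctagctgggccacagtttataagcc
Gbp2: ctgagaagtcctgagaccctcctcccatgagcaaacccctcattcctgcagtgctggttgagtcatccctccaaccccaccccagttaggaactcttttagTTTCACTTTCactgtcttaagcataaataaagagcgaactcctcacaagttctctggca

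The genes upstream of the members were measured as well. Of 21 interferon genes in the table, 16 had 0 counts in all 4 tumors and 0 passed the filter on low counts. A count of 0 allows up to 3 counts, which before TMM scaling corresponds to 0.165 CPM in ATO 1, 0.197 in ATO 2, 0.172 in PBS 1 and 0.167 in PBS 2. Ifnb1 and nearly all interferon alpha genes were among those at 0. Ifng, which encodes interferon gamma, had 0 counts in ATO 1, 5 in ATO 2, 1 in PBS 1 and 2 in PBS 2, and Ifne, which is expressed mainly in the female reproductive tract, had 0, 0, 6 and 1. Differences between the tumors were not tested at these counts.

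Receptors and Janus kinases had counts in every tumor. Ifnlr1, a chain of the type III receptor, was low, at 0.53 FPKM in ATO 1, 0.80 in ATO 2, 0.15 in PBS 1 and 3.10 in PBS 2. By edgeR, 0 of 9 passed in either direction (0 with an unadjusted p under 0.05, and 0 in DESeq2), 6 were higher in ATO and 3 lower in the fit, and the median log2 fold change was 0.05. Ifngr1, the ligand-binding chain of the interferon gamma receptor, was the most abundant, with 71.8 FPKM in ATO 1, 63.2 in ATO 2, 47.8 in PBS 1 and 76.2 in PBS 2. Jak1, the kinase shared by all interferon receptors, was at 29.2, 31.0, 29.3 and 54.7 FPKM. PBS 2 was the highest tumor for both by FPKM, but by CPM both ATO tumors exceeded both PBS tumors for Ifngr1. Ifnar2, a chain of the type I receptor, was at 18.0 FPKM in ATO 1, 31.8 in ATO 2, 18.3 in PBS 1 and 24.8 in PBS 2, and Ifngr2, the second chain of the gamma receptor, at 19.7, 22.0, 23.1 and 27.3 FPKM. The groups overlapped by CPM for both, whereas by FPKM both ATO tumors lay below both PBS tumors for Ifngr2. Ifnar1, the other chain of the type I receptor, was the only gene of this list for which both ATO tumors lay below both PBS tumors by CPM and by FPKM, with 78.2 CPM in ATO 1, 120.0 in ATO 2, 144.0 in PBS 1 and 181.6 in PBS 2 (log2 fold change -0.72 ± 0.44, adjusted p = 0.687 in edgeR, and -0.46 without ATO 1). By CPM both ATO tumors thus lay above both PBS tumors for 1 of these 9 genes and below for 1, against 19.7% and 20.2% of all genes.

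Of 15 upstream sensors, adaptors and regulatory factors, 0 passed in either direction (0 with an unadjusted p under 0.05, and 0 in DESeq2), 11 were higher and 4 lower, and the median log2 fold change was 0.31. Myd88, the adaptor of most Toll-like receptors, was at 15.2 FPKM in ATO 1, 21.4 in ATO 2, 20.6 in PBS 1 and 37.6 in PBS 2. Sting1, the adaptor of the cytosolic DNA sensor, was at 10.2, 18.5, 22.8 and 20.0 FPKM. Both were lowest in ATO 1, the tumor with the highest level of most members. For Sting1 both ATO tumors lay below both PBS tumors by FPKM, while by CPM ATO 2 was the highest tumor, at 62.0. Irf3, which starts interferon transcription, was at 15.7 FPKM in ATO 1, 17.3 in ATO 2, 11.7 in PBS 1 and 21.1 in PBS 2. By CPM Irf3 was highest in ATO 2, at 73.0 against 65.65 in PBS 2. Irf5, a factor of myeloid cells, was at 17.1, 18.5, 10.7 and 16.3 FPKM. Of these 4 genes only Irf5 had both ATO tumors above both PBS tumors, as did Mavs and Tlr9 among the rest of the list by CPM. This was 3 of 15 genes (20.0%), close to the 19.7% of all genes. Mavs, the mitochondrial adaptor of the RNA sensors, was at 52.0 CPM in ATO 1, 86.5 in ATO 2, 34.1 in PBS 1 and 29.1 in PBS 2, without overlap on either scale (log2 fold change 1.13 ± 0.43, unadjusted p = 0.0512, adjusted p = 0.585 in edgeR, and 0.72 without ATO 2).

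Of 7 negative regulators, Trex1 had 0 counts in all 4 tumors, and the other 6 gave 0 calls (0 with an unadjusted p under 0.05 in edgeR, and 0 in DESeq2), with 4 higher, 2 lower and a median log2 fold change of 0.12. Overlap with other genes was examined for the members only, so the counts of 0 do not show that Trex1 was silent. Socs3, an inhibitor of Janus kinases, was at 8.93 FPKM in ATO 1, 54.4 in ATO 2, 23.6 in PBS 1 and 62.1 in PBS 2, and Samhd1, which degrades nucleotides needed by retroviruses, at 35.3, 23.4, 17.0 and 37.2 FPKM. Ptpn2, a phosphatase of Janus kinases and STAT proteins, was at 8.93, 8.09, 13.4 and 6.32 FPKM in the same order, and Pias1, a SUMO ligase that dampens the response, at 8.89, 4.97, 7.14 and 7.18 FPKM. The groups overlapped for all of these. By CPM the highest tumor was ATO 2 for Socs3 (192.3, against 162.6 in PBS 2) and ATO 1 for Samhd1 (321.3, against 308.0 in PBS 2).

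A further list of interferon-stimulated genes held 51 genes, of which 50 were tested. By edgeR 0 passed in either direction (4 with an unadjusted p under 0.05, all higher, or 8.0% against 8.51% of all genes, and 0 in DESeq2), 39 were higher and 11 lower, and the median log2 fold change was 0.80. Both ATO tumors lay above both PBS tumors in 27 of them by CPM (54.0%, against 19.7% of all genes) and in 20 of 50 by FPKM (against 12.8% of all genes), and PBS 1 was the lowest tumor for 42 (84.0%, against 28.6%). Unlike among the members, ATO 1 was not the most frequent highest tumor, with 17 genes against 20 for ATO 2 and 11 for PBS 2, and the median log2 ratio of ATO 1 to ATO 2 was 0.01 (members 0.54). The most abundant were the membrane proteins that restrict the entry of virus, with Ifitm2 at 156.9 FPKM in ATO 1, 315.2 in ATO 2, 274.6 in PBS 1 and 402.0 in PBS 2, and Ifitm3 at 254.3, 319.3, 152.1 and 409.8 FPKM. Ifitm1 was at 18.2, 65.4, 19.0 and 345.2 FPKM. In these the highest tumor was PBS 2, although Ifitm2 and Ifitm3 were highest in ATO 2 by CPM and the groups overlapped on both scales. Lgals3bp, a secreted glycoprotein, was at 91.4, 83.7, 36.0 and 67.8 FPKM, with no overlap between the groups.

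The tumors also differed in the markers of the cell types they held. Mesenchymal markers, chosen because the labels name the tissue as sarcoma, summed to 5077 FPKM in ATO 1, 1787 in ATO 2, 6995 in PBS 1 and 3035 in PBS 2 over 8 genes, led by Col1a1. In the fit, Col1a1 and Col1a2 were higher in ATO and the other 6 lower, with a median log2 fold change of -1.10, the opposite sign to the members. Vim, Pdgfrb and Sparc were lower in both ATO tumors than in both PBS tumors on either scale, although 0 of the 8 had an unadjusted p under 0.05 in edgeR. By CPM 3 of the 8 lay below in this way, against 20.2% of all genes, and by FPKM 4 of the 8, against 29.6%. Epithelial markers were low, at 5.54, 20.2, 1.05 and 7.77 FPKM over 6 genes led by Krt18, with Krt5 at 0 counts in ATO 1 and Krt5, Krt8 and Krt14 at 0 in PBS 1. Skeletal muscle markers summed to 13100 FPKM in ATO 1, 942.3 in ATO 2, 6.54 in PBS 1 and 116.9 in PBS 2 over 8 genes led by Acta1. Adipocyte markers summed to 206.3, 1032, 0.17 and 0.54 FPKM over 5 genes led by Cfd, with Lep at 0 counts in both PBS tumors and Plin1 at 0 in PBS 1. Muscle and fat markers were thus high in the ATO tumors and low or near 0 in the PBS tumors, with all 8 and all 5 genes separating the groups by CPM (against 19.7% of all genes), and muscle markers were highest in ATO 1, as were most members. By edgeR 0 of these genes passed, while DESeq2 called 7 of the muscle and all 5 of the adipocyte markers, against 4.12% of all genes. In RNA of whole tumors, fewer cells of a type and less RNA per cell cannot be told apart.

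Leukocyte markers had other orders. Macrophage markers summed to 1139 FPKM in ATO 1, 1545 in ATO 2, 1280 in PBS 1 and 561.9 in PBS 2 over 10 genes led by C1qb, and all 10 were higher in ATO in the fit. Both ATO tumors exceeded both PBS tumors in only 2 of the 10 by CPM (20.0%, against 19.7% of all genes) and in 0 by FPKM, and PBS 2 was the lowest tumor for 8. T and NK cell markers summed to 21.1, 13.1, 1.36 and 13.3 FPKM over 12 genes led by Cd4, with Cd3g, Cd8b1 and Ncr1 at 0 counts in PBS 1. B and plasma cell markers summed to 14.5, 96.5, 1.29 and 15.0 FPKM over 6 genes led by Jchain, and pan-leukocyte markers to 155.3, 230.4, 109.3 and 303.1 FPKM over 4 genes led by Cd53. PBS 1, the tumor in which most members were lowest, was the lowest tumor for all 11 tested T and NK cell markers, all 6 B and plasma cell markers and all 4 pan-leukocyte markers, for 4 of 5 tested dendritic cell and 4 of 6 neutrophil markers, and for 2 of 6 endothelial and 0 of 10 macrophage markers. It was also lowest for all 8 skeletal muscle, 3 of 5 adipocyte, 2 of 4 tested epithelial and 0 of 8 mesenchymal markers. Over all genes tested, PBS 1 was lowest for 28.6%. No leukocyte marker passed in edgeR, while DESeq2 called Cd4, Jchain and Mzb1 (adjusted p of 0.0109, 0.0162 and 0.0405), for which both ATO tumors exceeded both PBS tumors on either scale. These were 1 of 11 tested T and NK cell markers and 2 of 6 B and plasma cell markers, against 4.12% of all genes. In the macrophage, dendritic cell, neutrophil and pan-leukocyte lists DESeq2 called 0. Neutrophil markers summed to 1560 FPKM in ATO 1, 890.1 in ATO 2, 142.6 in PBS 1 and 5920 in PBS 2 over 6 genes led by S100a9, and endothelial markers to 77.9, 157.4, 107.6 and 946.2 FPKM over 6 genes led by Cdh5. Both lists were highest in PBS 2. Dendritic cell markers were low, at 11.7, 21.5, 18.6 and 19.4 FPKM over 7 genes led by Tcf4, which other cells express as well, with Ly6d and Xcr1 at 0 counts in PBS 1. The part of these cell types in the levels of the interferon-stimulated genes was not tested. The mitochondrial share of ATO 2 was addressed only by removing the mitochondrial genes, which gave a member median of 0.92 and 33 members higher. Both ATO tumors then lay above both PBS tumors in 20 members by CPM. Whether this share goes with other differences of ATO 2 was not tested.

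**Figure D3:**
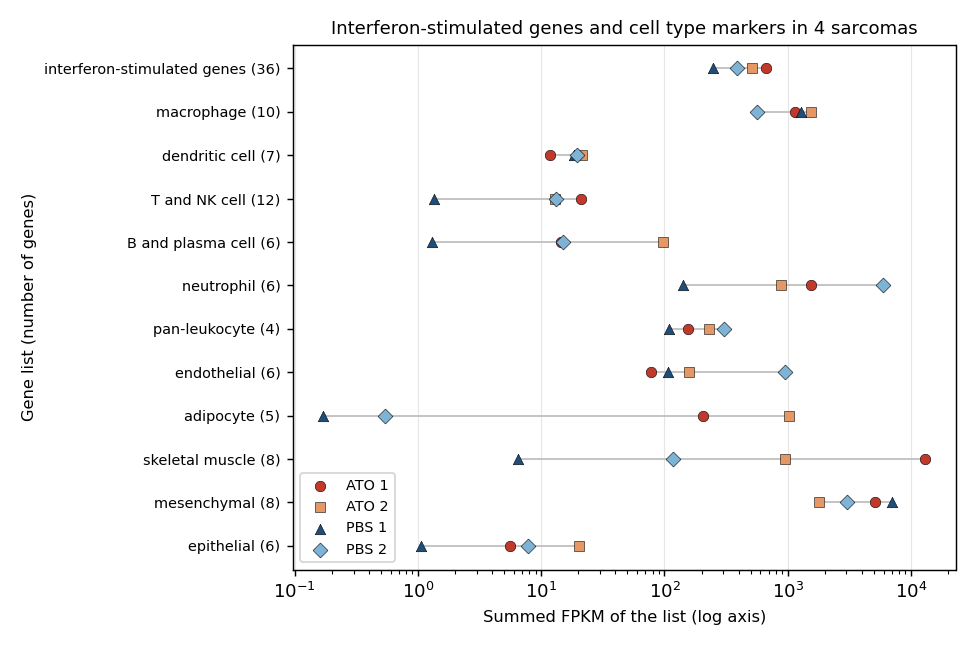
Summed FPKM on a log axis of the interferon-stimulated genes and of each list of cell type markers, with the number of genes in parentheses and 1 point for each tumor. The 36 interferon-stimulated genes span 248.8 FPKM in PBS 1 to 665.9 FPKM in ATO 1, while the muscle markers span 6.54 FPKM in PBS 1 to 13100 FPKM in ATO 1.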

How the data were processed

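The 4 sarcomas were compared between the treatments given by the labels, 2 against 2. Reads had been checked with FastQC 0.10.1, trimmed with cutadapt 1.9.1 and aligned with HISAT2 2.0.1 by the authors, whose HTSeq counts per gene were deposited without normalization. Because no strand setting is given in the sources used here, reads of overlapping and antisense genes cannot be told apart (Ifi35 shares 16.8% of its exon bases with an antisense gene, Gm11626). Labels and methods name different library kits. FPKM were deposited as well, and each differs by at most 0.005 from the value recomputed from the count, the exonic size in the table and the library total. Although GRCm38 is named, only 1472 of the 52073 genes shared with GENCODE M21 (2.83%) have the same position there, so positions come from GENCODE M21 by gene identifier.

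The test was the quasi-likelihood F-test of edgeR 4.0.16 (R 4.3.3) after filterByExpr and TMM, without robust estimation. It covered 17188 genes, and an adjusted p (Benjamini-Hochberg over these genes) under 0.05 was called. TMM factors were 1.01 (ATO 1), 0.822 (ATO 2), 1.09 (PBS 1) and 1.11 (PBS 2), and the biological coefficient of variation was 62.5%. An exact permutation test of 2 against 2 cannot give a p below 0.333. As alternatives, DESeq2 1.42.0 was run, its size factors were passed to edgeR, the filter was dropped or replaced by a mean FPKM of at least 1, limma 3.58.1 was fitted to log2(FPKM + 1) and log2(FPKM + 0.1), the replicate number was added as a block, mitochondrial genes were removed, and each tumor was left out. These scripts were tested on simulated data. Python 3.11.15 (pandas 2.3.3, numpy 2.4.6, scipy 1.17.1, matplotlib 3.10.9) served for promoters, intervals, summaries and figures.

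All 36 members are named, ordered by role, and each pathway list is represented by up to 4 genes of highest mean FPKM. Members and lists were chosen with earlier results of these data known. Ifnar1, Ifnlr1 and Mavs were named in addition after their values were seen. A further gene looked at singly is counted in its list but not reported here. Shared sequence means identical 50-base windows in GENCODE M21 transcripts.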

Additional observations from a re-analysis of the deposited data

How the results depend on the processing

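In edgeR 0 genes passed the threshold, against 753 with DESeq2 and 541 without a filter, and each of these called 1 interferon-stimulated gene, Ifi27l2a. The cause was not tested. In the other alternatives, limma and the omission of each tumor included, no gene passed. The number of interferon-stimulated genes with both ATO tumors above both PBS tumors was 20 by TMM-normalized CPM and 10 by deposited FPKM, a scale without TMM, on which the median log2 fold change of all genes in limma was -0.23 with a pseudocount of 1 and -0.28 with 0.1, while that of the members was 0.51 and 0.64. When a tumor was left out, members above ranged from 24 to 29 and members below from 0 to 2, with fewer tumors to overlap. Over all 12 alternatives the member median lay between 0.51 and 1.29, and between 29 and 36 members were higher.

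The replicate number is not known to pair the tumors (correlation of deviations of same-numbered tumors -0.02), and the replicate block changed no call, with a member median of 0.96. Under the block the log2 fold changes of Irf1 and Oasl2 changed sign to -0.17 and 0.14.

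Of 429 fold changes of members under alternatives, 23 changed sign, in 11 genes, and the cause was not tested. Oasl2 gave 0.0087 with DESeq2 and with its size factors in edgeR, and 0.0010 with a mean FPKM of at least 1. Irf1 gave -0.0093 without a filter, and -0.41 and -0.44 in limma with pseudocounts of 1 and 0.1. When a tumor was left out, Irf1 ranged from -1.02 to 0.61, Eif2ak2 from -0.40 to 0.26, Oasl1 from -1.55 to 1.06, Oasl2 from -0.52 to 0.81, Ifit2 from -0.0108 to 0.96, Oas3 from -0.34 to 3.38, Mx1 from -0.0708 to 2.62, Rsad2 from -0.34 to 4.31, Gbp2 from -0.94 to 1.52, Gbp3 from -0.0213 to 0.88 and Trim30a from -0.11 to 1.71. A fit that left an arm with 1 tumor assumed that it varied like the other arm. Mx2 had no value in limma or where a mean FPKM of at least 1 was required.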
